A study of Mus musculus with 3 samples.

Results

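The genes described here are 10 regulators of mitosis, taken as a named set (Top2a, Birc5, Ube2c, Stmn1, Ccnb1, Ccnb2, Cdk1, Plk1, Aurka and Bub1) and found in the value table through the gene symbols of the array's annotation. Of the 10 genes, 9 had rows, 13 rows in all, among 15055 named genes tested. Ccnb1, which encodes cyclin B1, was not found by name and is not analysed here. The tissue was mammary tumour outgrowth of mice that carry the polyoma virus middle T antigen behind the MMTV promoter, which is active in mammary epithelium among other tissues, together with a GFP transgene under the beta-actin promoter. Single premalignant lesions (hyperplasias) of such mice at puberty had been placed into syngeneic host mice, per the series design text, so the transplanted cells of both stages came from carriers of both transgenes. Late carcinomas were outgrowths of 18 weeks and adenomas were outgrowths of 5 weeks. Total RNA of a late carcinoma (Cy3) and of an adenoma (Cy5) was put on each of 3 arrays of 2 colours, with the dyes the same way round on all of them. Nothing in the labels tells whether separate animals or separate transplanted lesions stand behind the arrays. The p-values therefore cover array-to-array spread alone, and that spread may be technical.

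Every value is a log ratio per array, read here as log2 of the adenoma over the late carcinoma. A value below 0 is therefore likely higher in the late carcinoma and a value above 0 likely higher in the adenoma. The table states neither the numerator nor the log base, and all directions would turn together if the ratio had been formed the other way. A ratio carries no level, so neither the abundance of a transcript nor its rank among the others in a tumour can be given, and the presence of mammary epithelium could not be checked from marker levels. The array medians ran from -0.033 to -0.012, and precision is limited by having 3 arrays. In whole tumour pieces, fewer dividing cells and less of a transcript per dividing cell cannot be told apart.

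Entry into mitosis is driven by the kinase Cdk1 bound to a B-type cyclin, and exit from it by the anaphase-promoting complex, a ubiquitin ligase that marks cyclin B and securin for destruction. Between entry and exit, polo and aurora kinases build the spindle, the spindle checkpoint holds the exit until every chromosome is attached, and topoisomerase II untangles sister DNA. Most of these genes are transcribed in G2 and M phase, through CCAAT boxes bound by the factor NF-Y and through an element called CHR, with the letters TTTGAA, that lies near the start of transcription. Because of that shared control their transcripts often serve together as a measure of how many cells of a tumour divide.

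The 300 bases around the start of transcription (250 before it and 50 from it on) were available from RefSeq for 9 of the 10 genes (build GRCm38.p6), Ccnb1 among them and Stmn1 not. The 5 stretches below are shown because they belong to genes on both sides of 0, and to 1 gene near 0, of which most are known targets of this programme. Each runs over the 150 bases before the start, 5′ to 3′ on the gene's own strand, with the motif CCAAT, the motif TTTGAA and its variant TTCGAA in capitals wherever they occur on either strand. Read from the other strand, the first of these motifs appears as ATTGG and the second as TTCAAA, while the third reads the same both ways.
Top2a, chr11:99024190-99024339, minus strand: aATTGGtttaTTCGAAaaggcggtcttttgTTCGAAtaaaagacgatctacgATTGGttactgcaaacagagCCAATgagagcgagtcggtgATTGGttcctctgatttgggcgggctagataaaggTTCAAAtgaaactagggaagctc
Birc5, chr11:117849087-117849236, plus strand: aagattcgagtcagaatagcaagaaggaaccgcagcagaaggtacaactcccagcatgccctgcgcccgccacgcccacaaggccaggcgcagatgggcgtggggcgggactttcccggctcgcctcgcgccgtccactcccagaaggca
Ube2c, chr2:164769779-164769928, plus strand: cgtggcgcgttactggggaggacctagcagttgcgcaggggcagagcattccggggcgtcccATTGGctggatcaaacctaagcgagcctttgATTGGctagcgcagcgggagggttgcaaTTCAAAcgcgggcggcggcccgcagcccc
Ccnb2, chr9:70421555-70421704, minus strand: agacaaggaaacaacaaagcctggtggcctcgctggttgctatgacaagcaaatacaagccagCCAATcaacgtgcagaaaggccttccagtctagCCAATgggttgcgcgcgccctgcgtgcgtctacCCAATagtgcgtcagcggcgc
Cdk1, chr10:69352913-69353062, minus strand: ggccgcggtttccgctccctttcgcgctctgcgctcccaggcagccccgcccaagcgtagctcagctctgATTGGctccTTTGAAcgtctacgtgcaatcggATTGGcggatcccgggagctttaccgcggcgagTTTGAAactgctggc

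Of the 9 measured genes, 5 passed a limma adjusted p of 0.05, and they lay on both sides of 0. On the late carcinoma side were Top2a and Birc5, with Stmn1, Ube2c and Ccnb2 on the adenoma side, while Aurka, Bub1, Cdk1 and Plk1 did not pass. Past the threshold lay 2 of 9 below 0, where 9.19% of all named genes passed, and 3 of 9 above 0, where 16% passed. In either direction that made 5 of 9, beside 25.2% of all named genes and 25.1% of all genes and unnamed probes. The median of the 9 mean log2 ratios was 0.15, against -0.027 over all named genes. Without array 3, 0 of the 9 passed, as did 1 of all 31058 genes and probes (0.00322%), so that loss is not particular to these genes. Their means without array 3 were -0.67 for Top2a, -0.43 for Birc5, 1.32 for Stmn1, 1.13 for Ube2c and 0.33 for Ccnb2. At an unadjusted p of 0.05 in limma, 4 of the 9 genes were called without array 3, beside 24.6% of named genes, and 6 with every array kept, beside 40.9%.

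**Figure D1:**
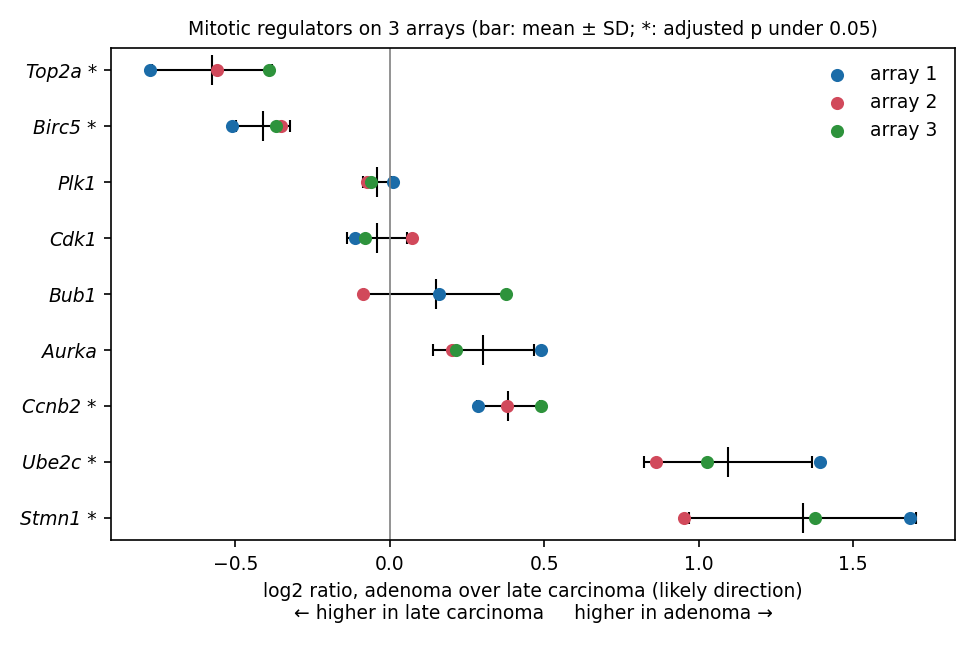
Log2 ratio of adenoma over late carcinoma (horizontal axis) of the 9 measured genes on arrays 1, 2 and 3 (points), with the mean and SD of the 3 arrays (bars). Top2a and Birc5 sit below 0 and Stmn1, Ube2c, Ccnb2 and Aurka above 0 on every array, while Plk1, Cdk1 and Bub1 have arrays on both sides.

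Top2a encodes topoisomerase II alpha, which cuts and rejoins DNA to separate sister chromatids and is the target of several cancer drugs. Its single probe gave log2 ratios of -0.78, -0.56 and -0.39 on arrays 1, 2 and 3. The mean was -0.58 ± 0.19 (SD, n = 3), which is 1.49-fold higher in the late carcinoma, with a limma adjusted p of 0.0181. All arrays lay below 0, and 3.56% of named genes had a lower mean. Its relative Top2b, the isoform found in dividing and resting cells alike, lay on the other side, with 0.20, 0.47 and 0.47 and a mean of 0.38 ± 0.15 (adjusted p = 0.0484). The arrays of Top2a and Top2b did not overlap. The call for Top2b was lost without array 2 (adjusted p = 0.154) and with centring on receptor genes, described below (mean 0.032, adjusted p = 0.825).

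Birc5 encodes survivin, which belongs to the inhibitor of apoptosis family and, as a subunit of the chromosomal passenger complex, brings aurora B to centromeres. Averaged over its 3 probes, it had -0.51, -0.35 and -0.37 on arrays 1, 2 and 3. The mean was -0.41 ± 0.088, or 1.33-fold higher in the late carcinoma (limma adjusted p = 0.0320). All arrays were below 0, but the call did not hold without array 1, 2 or 3 (adjusted p = 0.0674, 0.0632 and 0.171). The probes differed: probe 1 gave -0.013, -0.11 and -0.11, probe 2 gave -1.13, -0.34 and -0.44, and probe 3 gave -0.40, -0.60 and -0.56. Probes 2 and 3 each passed on their own (limma adjusted p = 0.0349 and 0.0186, each row fitted as its own probe), and probe 1 did not (mean -0.077, adjusted p = 0.636). The range of 0.56 between the probe means is close to the median range of 0.52 over the 1116 genes with 3 probes.

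The other passenger subunits did not share one side. Aurkb, the kinase of the complex, had 0.79, 0.56 and 0.33 (mean 0.56 ± 0.23, adjusted p = 0.0223) and was the 1 of 6 genes of this list past the threshold. Cdca8, which encodes borealin and binds survivin directly, had -0.31, -0.24 and -0.26 (mean -0.27 ± 0.035, adjusted p = 0.0938), and the scaffold gene Incenp had a mean of -0.17 ± 0.11 (adjusted p = 0.277). With receptor centring Aurkb no longer passed (mean 0.21, adjusted p = 0.171). Cdca8 (-0.62, limma adjusted p = 0.00512) and Incenp (-0.52, limma adjusted p = 0.00727) then passed below 0. Of the 6 genes of this list 5 passed below 0 with that zero, beside 55.4% of all named genes. Of the relatives of Birc5 among apoptosis inhibitors, Xiap passed above 0 (0.55 ± 0.16, adjusted p = 0.0179) and Birc2, Birc3 and Birc6 did not, with means of -0.21, 0.26 and 0.22. Receptor centring ended the call for Xiap as for Aurkb (0.21, adjusted p = 0.136), and Birc2 passed below 0 with it (-0.56, limma adjusted p = 0.00901).

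Stmn1 encodes stathmin, which binds tubulin dimers, promotes the shrinking of microtubules and is switched off by phosphorylation at mitosis. Its single probe had 1.68, 0.95 and 1.38 on arrays 1, 2 and 3. The mean of 1.34 ± 0.37 is 2.53-fold higher in the adenoma (limma adjusted p = 0.0117), and 99.8% of named genes had a lower one. All arrays lay far above 0, and the lowest of them was above every array of Ccnb2, Aurka, Bub1, Cdk1, Plk1, Birc5 and Top2a. The stathmins of nervous tissue stayed near 0, with means of 0.16 ± 0.12 for Stmn2, -0.15 ± 0.10 for Stmn3 and 0.018 ± 0.10 for Stmn4. None of these passed (adjusted p = 0.298, 0.334 and 0.914). With receptor centring Stmn3 (-0.50, limma adjusted p = 0.00841) and Stmn4 (-0.33, limma adjusted p = 0.0377) passed below 0, as did 55.4% of all named genes. Stmn2 did not (-0.19, limma adjusted p = 0.181).

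Ube2c encodes the ubiquitin-conjugating enzyme that starts chains on substrates of the anaphase-promoting complex. Its single probe had 1.39, 0.86 and 1.03. The mean of 1.09 ± 0.27 is 2.14-fold higher in the adenoma (limma adjusted p = 0.0117). On each array Ube2c was below Stmn1, but their ranges overlapped. These were the only 2 of the 9 genes with a mean of at least 2-fold, a size that 2.51% of named genes reached. Ube2s, the enzyme that lengthens the chains Ube2c begins, had -0.13, -0.35 and -0.44, a mean of -0.31 ± 0.16 that did not pass (adjusted p = 0.0874). With receptor centring Ube2s passed below 0 (-0.66, limma adjusted p = 0.00484), as did 55.4% of all named genes. The arrays of Ube2c and Ube2s did not overlap.

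Ccnb2 encodes cyclin B2, the B-type cyclin of the Golgi region. Its single probe had 0.29, 0.38 and 0.49. The mean of 0.38 ± 0.10 is 1.31-fold higher in the adenoma (limma adjusted p = 0.0399). All arrays lay above 0 and below every array of Ube2c, yet the call did not hold without array 2 or 3 (adjusted p = 0.0996 and 0.245). With receptor centring the mean was 0.036 (adjusted p = 0.788). With a running median of 29 neighbouring rows taken off, it was 0.66. Cdk1, the kinase that cyclin B2 activates, had -0.11, 0.071 and -0.080 over 2 probes, a mean of -0.040 ± 0.097 with a 95% interval from -0.29 to 0.21 (limma adjusted p = 0.800). Its probes had means of -0.081 and 0.00033. Of its relatives, Cdk5, which acts mainly in neurons, passed above 0 (0.47 ± 0.13, adjusted p = 0.0257). It did so neither with receptor centring (0.12, adjusted p = 0.358), nor with the running median (0.0566), nor without array 1 or 3 (0.0527 and 0.158). Cdk4, a kinase of D-type cyclins, had -0.37 ± 0.21 (adjusted p = 0.0630), and Cdk2, Cdk6 and Cdk7 had means of 0.016, 0.15 and -0.031 without passing. With receptor centring Cdk4 (-0.72), Cdk2 (-0.33) and Cdk7 (-0.38) passed below 0 (limma adjusted p = 0.00562, 0.0306 and 0.0197), and Cdk6 did not. Of all named genes, 55.4% passed below 0 with that zero. Ccnb3, the relative of Ccnb2 best known from germ cells, had -0.13 ± 0.15 (adjusted p = 0.397).

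Plk1, the polo kinase of centrosome maturation and cyclin B activation, had a gene mean of -0.041 ± 0.044 (limma adjusted p = 0.789). That small SD hid probes on opposite sides. Probe 1 gave 0.22, 0.35 and 0.33, a mean of 0.30 ± 0.065, and probe 2 gave -0.21, -0.49 and -0.44, a mean of -0.38 ± 0.15. The arrays of the 2 probes did not overlap, and neither probe passed by itself (limma adjusted p = 0.0865 and 0.0533). The probes differed by 0.43, 0.84 and 0.77 on arrays 1, 2 and 3, or 0.68 ± 0.22. Of 3598 genes with 2 probes, 80.2% had probe means closer together than that, and 45.3% had probes on both sides of 0. The annotation gives both probes the same transcript, so which of them measures Plk1 better could not be decided here.

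**Figure D2:**
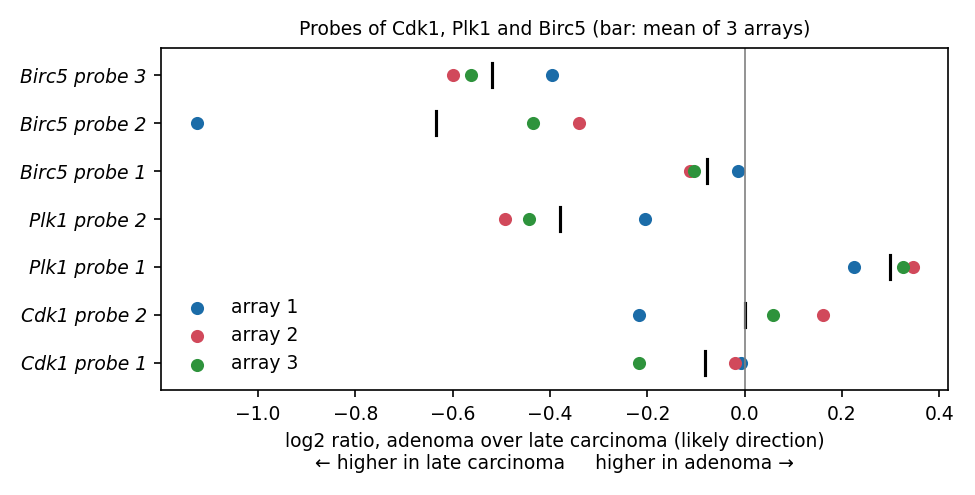
Log2 ratio of adenoma over late carcinoma (horizontal axis) for each probe of Birc5, Plk1 and Cdk1 on arrays 1, 2 and 3 (points), with the probe's mean (black bars). The probes of Plk1 lie on opposite sides of 0 on every array, and probe 1 of Birc5 lies nearer to 0 than probes 2 and 3.

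Aurka, the aurora kinase of spindle poles, had 0.49, 0.20 and 0.22 with 1 probe. The mean of 0.30 ± 0.16 did not pass (limma adjusted p = 0.0922). It lay above 0 on 3 of 3 arrays, and 63.2% of named genes had the same sign on all 3. Tpx2, which activates aurora A on the spindle, had a mean of -0.15 ± 0.097 (adjusted p = 0.336). It passed below 0 with receptor centring (-0.49, limma adjusted p = 0.00801), as did 55.4% of all named genes. Bub1, a kinase of the spindle checkpoint, had 0.16, -0.086 and 0.38 with 1 probe, a mean of 0.15 ± 0.23 (adjusted p = 0.405), and its arrays fell on both sides of 0. Its relative Bub1b, which encodes the checkpoint protein BubR1, had -0.079 ± 0.072 (adjusted p = 0.597). Among the other polo kinases, Plk3 had 1.22, 0.28 and 0.40 and a mean of 0.63 ± 0.51 that did not pass (adjusted p = 0.0530), and Plk2, Plk4 and Plk5 had means of -0.11, 0.25 and 0.060.

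In order of their mean, the genes ran Top2a, Birc5, Plk1, Cdk1, Bub1, Aurka, Ccnb2, Ube2c and Stmn1. Top2a and Birc5 overlapped on their arrays, as did Plk1 and Cdk1, Cdk1 and Bub1, Bub1 and Aurka, Aurka and Ccnb2, and Ube2c and Stmn1. Gaps with no overlap lay between Birc5 and Plk1 and between Ccnb2 and Ube2c. Set out by array rather than by gene, the 9 genes had medians of 0.16, 0.071 and 0.22.

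The wider set of mitosis genes was 166 measured genes in 11 lists of roles. Of these, 11 passed the threshold below 0 and 31 above 0, beside 9.19% and 16% of all named genes. The same 2 shares belong beside the count of each list that follows. In either direction 25.3% of the 166 passed, beside 25.2% of all named genes, and their median was -0.0052 beside -0.027. No difference between the lists was tested. Receptor centring takes 0.35 off the mean of a gene, and with it the median of each of the 11 lists lay below 0, from -0.60 to -0.13, beside -0.38 for all named genes. Cyclin and CDK partners held 0 of 13 past the threshold below 0 and 3 above 0. These 3 were the cyclin A2 gene Ccna2 (1.10 ± 0.44, adjusted p = 0.0119) and both CDK-binding subunits, Cks1b (0.83 ± 0.18) and Cks2 (0.93 ± 0.36). The phosphatase and kinase genes that set the timing of Cdk1 did not pass, with means of -0.28 for Cdc25a, -0.064 for Cdc25b, -0.15 for Cdc25c, 0.0030 for Wee1 and -0.18 for Pkmyt1. With receptor centring Cdc25a (-0.63), Cdc25c (-0.50), Wee1 (-0.35) and Pkmyt1 (-0.53) passed below 0 (limma adjusted p = 0.00517, 0.00800, 0.0411 and 0.00792), and Cdc25b did not. The list of 13 then held 7 below 0 and 3 above 0, beside 55.4% and 7.19% of all named genes. Ccna2 was the gene nearest to Ube2c in its pattern over arrays (1.59, 0.73 and 0.98), at a Euclidean distance of 0.24 in log2 units among 190 genes of the mitosis and replication lists.

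The anaphase-promoting complex, the ligase served by Ube2c, had the lowest median of the lists, at -0.26, and 3 of 18 genes passed below 0 and 1 above 0. Anapc1, its largest scaffold subunit, had -0.46, -0.73 and -0.75 (mean -0.64 ± 0.16, adjusted p = 0.0132). Anapc15 had a mean of -0.52 ± 0.14 (adjusted p = 0.0200), and Fzr1, the activator Cdh1 of late mitosis and G1, had -0.40 ± 0.16 (adjusted p = 0.0446). The call for Fzr1 was lost under median centring, under the running median, and when array 1, 2 or 3 was left out (adjusted p = 0.0553, 0.0596, 0.107, 0.0838 and 0.162). With receptor centring 15 of the 18 genes passed below 0 and 1 above 0, beside 55.4% and 7.19% of all named genes. The gene past the threshold above 0 was Pttg1, the securin gene, a substrate of the complex (0.67 ± 0.18, adjusted p = 0.0130). Fzr1 was the gene nearest to Birc5 in its pattern over arrays (distance 0.12), and Kif4, a chromosome-arm kinesin gene, was nearest to Top2a (0.32). The genes nearest to Aurka, Bub1, Cdk1 and Plk1 were Tacc1 (0.13), Aurkc (0.087), Haus7 (0.12) and Bub1b (0.080). Over 3 arrays such a distance is a description only.

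The spindle checkpoint list, the pathway of Bub1, held 0 of 8 past the threshold in the limma fit (3 had an unadjusted p under 0.05, beside the 40.9% of named genes given above), and 7 of 8 means lay below 0, as did 53.4% of those of named genes. The lowest was Spdl1, which recruits dynein to kinetochores, with -0.17, -0.49 and -0.43 (mean -0.37 ± 0.17, adjusted p = 0.0573). Without array 1, Spdl1 passed (adjusted p = 0.0318), and with receptor centring 7 of 8 passed below 0, beside 55.4% of all named genes. Kinases related to polo and aurora held 0 of 11 past the threshold below 0 and 1 above 0, the centrosome kinase gene Nek2 (0.67 ± 0.48, adjusted p = 0.0401). The call for Nek2 did not hold without array 1 (adjusted p = 0.0712) or with receptor centring (0.32, adjusted p = 0.122). With that zero 4 of the 11 passed below 0 and 0 above 0.

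Kinetochore and centromere genes had the highest median of the lists, at 0.21, with 1 of 29 past the threshold below 0 and 8 above 0. With receptor centring the median turned to -0.13, beside -0.38 for all named genes. With that zero 8 of 29 passed below 0 and 4 above 0, beside 55.4% and 7.19% of all named genes. Ska2 and Ska3, of the complex that couples kinetochores to microtubule ends, had means of 0.81 ± 0.20 and 0.91 ± 0.23, Cenpq had 1.13 ± 0.49 and Cenph 0.62 ± 0.15 (adjusted p = 0.0117 to 0.0137). Of these, Cenph lost its call under receptor centring (0.27, adjusted p = 0.0609) and the running median (0.0582). Cenpx, named because it was the exception and chosen after its value was seen, had -0.63 ± 0.35 (adjusted p = 0.0269). Spindle and centrosome genes held 15 of 32 past the threshold below 0 and 4 above 0 with receptor centring. In the values as reported they held 4 of 32 below 0 and 9 above 0, beside 9.19% and 16% of all named genes. Above 0 with the smallest p were Tubgcp3, of the gamma-tubulin ring (0.99 ± 0.18), Ran, the GTPase of spindle assembly and nuclear import (0.93 ± 0.23), Stil (1.04 ± 0.34) and Haus8 (0.91 ± 0.30). Ran and its exchange factor gene Rcc1 lay on opposite sides: Rcc1 lay below 0 on 3 of 3 arrays (mean -0.98 ± 0.34, adjusted p = 0.0118), again chosen after its value was seen, as were Ckap2, Ckap2l and Cenpj with means of -0.77, -0.56 and -0.38. Ckap2 did not pass with the running median (adjusted p = 0.0723), nor Cenpj with it (0.0601), with median centring (0.0529) or without array 1 or 2 (0.0790 and 0.0514).

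Of 10 mitotic kinesin genes, 2 passed the threshold below 0 and 2 above 0. By sign alone, 4 of the means lay below 0 and 6 above 0, where 53.4% of those of named genes lay below 0. With receptor centring 8 of the 10 means lay below 0, beside 12173 of 15055 named genes. With that zero 4 kinesin genes passed below 0 and 2 above 0, beside 55.4% and 7.19% of all named genes. Kif2c, which shortens microtubules at centromeres, had -0.67 ± 0.18 and Kif4 had -0.53 ± 0.033, while Kif11, the motor that pushes spindle poles apart, had 0.99 ± 0.48 and Kif23, of the central spindle, 0.98 ± 0.60 (adjusted p = 0.0130 to 0.0221). Condensin and cohesin genes held 0 of 16 past the threshold below 0 and 2 above 0. The cohesin subunit gene Rad21 had 1.73, 0.85 and 1.39 (mean 1.33 ± 0.44, adjusted p = 0.0117), the pattern nearest to that of Stmn1, at a distance of 0.11. Wapl, which releases cohesin, had 0.39 ± 0.092 (adjusted p = 0.0363) and was nearest to Ccnb2 (distance 0.065). Its call was lost with receptor centring (0.045, adjusted p = 0.730) and without array 2 (0.0755). Of the 16 genes of this list, 8 passed below 0 and 1 above 0 with receptor centring. Of 9 cytokinesis genes, 1 passed below 0, Prc1 (-0.57 ± 0.43, adjusted p = 0.0498), and 1 above 0, Ect2 (0.79 ± 0.40, adjusted p = 0.0184). The call for Prc1 did not hold with median centring, with the running median or without array 1 or 3 (adjusted p = 0.0589, 0.0815, 0.108 and 0.229). Receptor centring gave 5 of the 9 cytokinesis genes past below 0 and 1 above 0.

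**Figure D3:**
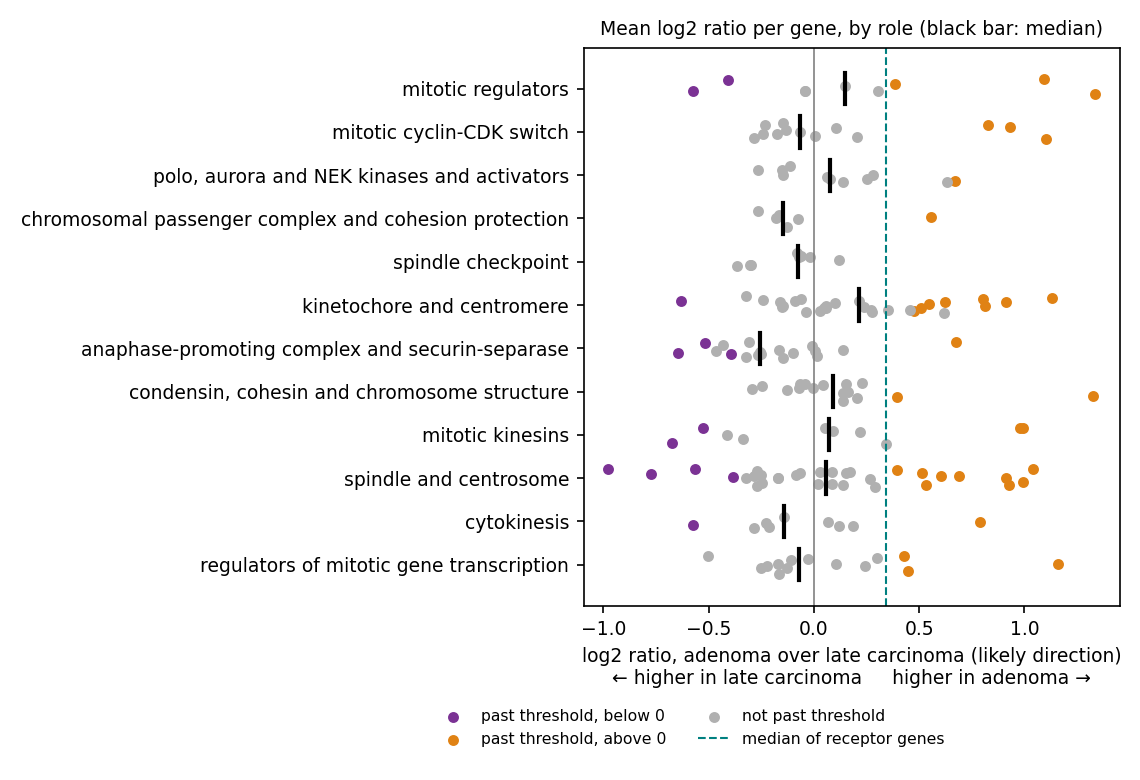
Mean log2 ratio of adenoma over late carcinoma (horizontal axis) of each gene in 12 role lists, coloured by side where its limma adjusted p was under 0.05, with the list median (black bars) and the median of the smell receptor genes (dashed line). The medians run from -0.26 for the anaphase-promoting complex to 0.21 for kinetochore genes, and every list but the spindle checkpoint has genes past the threshold.

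Regulators of mitotic transcription held 0 of 14 past the threshold below 0 and 3 above 0, beside 9.19% and 16% of all named genes. Foxm1, the factor that drives Ccnb1, Plk1 and Aurka in G2, had 0.55, 0.41 and 0.32 (mean 0.43 ± 0.11, adjusted p = 0.0305). The NF-Y subunit gene Nfyc had 0.45 ± 0.25 (adjusted p = 0.0453) and E2f5 had 1.16 ± 0.44 (adjusted p = 0.0118). Mybl2, the partner of Foxm1 on CHR promoters, had -0.17 ± 0.15 (adjusted p = 0.287), and the other NF-Y subunits had 0.11 for Nfya and -0.22 for Nfyb. The calls for Foxm1 did not hold without array 1, 2 or 3 (adjusted p = 0.0652, 0.0694 and 0.144), nor that for Nfyc without array 1 or 3 (0.107 and 0.171). With receptor centring both were near 0, Foxm1 at 0.079 (adjusted p = 0.543) and Nfyc at 0.10 (adjusted p = 0.484). Mybl2 (-0.52, limma adjusted p = 0.00752) and Nfyb (-0.57, limma adjusted p = 0.00904) then passed below 0, and Nfya did not. The list of 14 held 8 below 0 and 1 above 0 with that zero, beside 55.4% and 7.19% of all named genes. In the promoters shown above, Top2a on the late carcinoma side and Ube2c on the adenoma side each held 6 CCAAT motifs in the 300 bases, with 2 and 1 TTTGAA motifs, and 2 of the 6 in Ube2c overlap each other. Birc5 held 0 of either, and Cdk1, near 0, held 3 and 2. Over the 9 genes with a promoter, 8 held CCAAT and 6 held TTTGAA, beside 37.4% and 17.9% of all 32851 promoters. Within 166 promoters of the role lists these shares were 53% and 36.1%. TTCGAA, a variant of CHR, was found in 2 of the 9 (Top2a and Bub1) and in 1.56% of all promoters.

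Genes of DNA replication, which mark S phase, had 1 of 16 past the threshold below 0 and 3 above 0, and a median of 0.024. Pcna, the replication clamp gene, had 1.54, 1.22 and 1.28, close to Stmn1 (distance 0.33), while Mcm7, of the replicative helicase, had -0.40 (adjusted p = 0.0409). That call was lost under the running median (adjusted p = 0.124) and when array 2 or 3 was left out (0.0887 and 0.258). Receptor centring gave 9 of the 16 replication genes past below 0 and 3 above 0, beside 55.4% and 7.19% of all named genes. Markers of cell types, luminal and basal epithelium among them, passed at 28.6% of 63 genes, beside 25.2% of all named genes. Of 8 fat cell markers, 0 passed below 0 and 4 above 0 (Fabp4, Car3, Lep and Adipoq; list median 0.35), while Lipe and Cidec lay below 0 on every array, each with a mean of -0.28, and of 12 luminal markers 1 passed below 0 and 4 above 0. Macrophage markers held 1 of 7 past the threshold below 0 and 2 above 0. In the same order, T and NK cell markers held 1 of 7 and 2, and fibroblast markers 1 of 6 and 0. Endothelial markers held 0 of 7 and 1, and erythroid markers 0 of 4 and 1. Basal markers held 0 of 7 and B cell markers 0 of 5 past the threshold in either direction by limma. At an unadjusted p under 0.05 in limma these were 1 and 2, beside 40.9% of named genes. The adjusted counts hold for the values as reported, where 9.19% of named genes passed below 0 and 16% above 0. With receptor centring, described below, luminal markers held 5 below 0 and 1 above 0, and fat cell markers 2 and 2. Macrophage markers then held 3 and 1, T and NK cell markers 4 and 2, endothelial markers 2 and 1, and erythroid markers 2 and 0. Basal, B cell and fibroblast markers held 4 and 0 each, with 55.4% and 7.19% of named genes beside them. The part of these cell types in the ratios of the mitotic genes was not tested.

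The zero point matters for genes with small ratios. Genes for smell receptors (977 with Olfr or Vmn symbols), which serve smell in the nose, had mean log2 ratios between -0.88 and 1.33, with 0.34 as the median, and 26 of them passed below 0 and 424 above 0. Of the 9 genes, Stmn1 alone had a mean outside that range, by a narrow margin. Centring each array on these genes moved the median of all named genes by -0.35. With that zero, 4 of the 9 genes passed below 0 and 2 above 0: Top2a (-0.92, adjusted p = 0.00383), Birc5 (-0.76), Plk1 (-0.39, adjusted p = 0.0171) and Cdk1 (-0.39, adjusted p = 0.0237) on the late carcinoma side, and Stmn1 (0.99, adjusted p = 0.00384) and Ube2c (0.75, adjusted p = 0.00452) on the adenoma side. Ccnb2 was no longer past the threshold, and Aurka and Bub1 turned to -0.046 and -0.20 without passing. For the role lists the same zero gave 86 of 166 past below 0 and 17 above 0, against 55.4% and 7.19% of all named genes. Among the 22 measured relatives of the members it gave 10 past below 0 and 0 above 0, where the values as reported gave 0 and 4. Stmn1 and Ube2c thus kept their side and their call under both zeros. Top2a and Birc5 also passed with both, but a zero that lowers every mean cannot turn a mean already below 0. Each of the other 5 passed with at most 1 of the zeros.

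**Figure D4:**
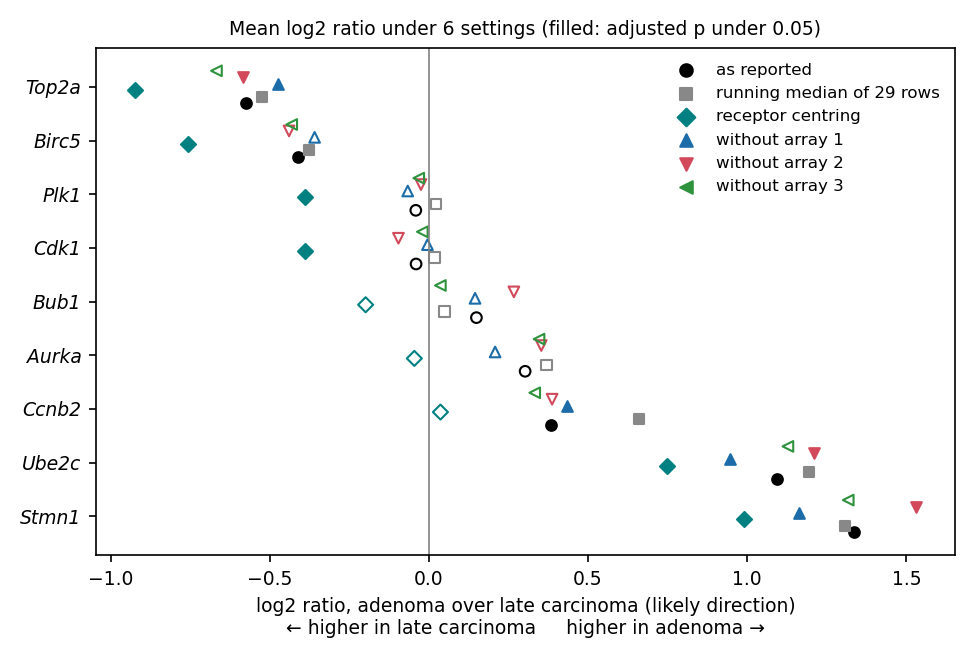
Mean log2 ratio of adenoma over late carcinoma (horizontal axis) of the 9 genes under 6 settings (symbols), filled where the limma adjusted p was under 0.05. Receptor centring shifts every gene to the left, and without array 3 every symbol is open.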

How the data were processed

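The deposited value table holds 1 log ratio per row and array, 38976 rows on 3 arrays, with 1 value missing. Its log base and numerator are not stated. They were taken by the usual convention as log2 of Cy5 over Cy3, with the dyes per the labels. What the authors did before that (scanner, background, normalization) is not given in the sources used here. The platform annotation named 22973 rows with 1 symbol, 0 with several and left 16003 unnamed; all named rows matched a gene of GRCm38.p6 by identifier, used for names and promoters only. Averaging the rows of each gene on each array, and keeping unnamed rows, gave 31058 units. No filter on low values was applied. limma 3.58.1 (R 4.3.3) tested each mean against 0, two-sided, with lmFit on an intercept and eBayes (prior degrees of freedom 4.60), with Benjamini-Hochberg adjustment over all units and a threshold of 0.05. The 10 genes, the role lists (192 genes, of which 166 were measured and were no members), the marker lists and the alternatives were chosen with earlier results of these data known. Named were all members and their relatives, up to 4 called genes per list, those of smallest p, or else the 1 with the largest mean, and the gene nearest in pattern; other names were chosen after their values were seen. On simulated ratios of the adenoma over late carcinoma comparison (31058 units, 50 changed per size), the fit recovered 0%, 66%, 100% and 100% at log2 changes of 0.5, 1, 2 and 3.5. In that simulation 8 unchanged units were called. It changed far fewer units than the 7809 that passed in the data. The adjustment is stricter with fewer changed units, so these shares do not give the recovery in the data. The dye orientation was the same throughout, so dye and stage cannot be told apart. Plots were made in Python 3.11.15 with matplotlib 3.10.9.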

Additional observations from a re-analysis of the deposited data

How the results depend on the processing

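The 5 mitotic genes past the threshold stayed 4 to 6 in number under centring, scaling, other ways to join probes, named genes alone, the robust model, array weights, an adjusted p of 0.1 and a running median, and were 2 by a 2-fold rule without a test. Leaving out 1 array at a time gave 0 to 4 of these genes, 0 to 39 of the 166 role list genes (42 with all arrays) and 1 to 7324 of all genes and probes (7809), the lowest always without array 3; that cause was not tested. Role list calls became 103 with receptor centring, 65 with each row as its own probe, where any probe of a gene counts, 65 with array weights and 5 by the 2-fold rule. Calls over all units became 19100 (16811 below 0, 2289 above) with receptor centring, 4274 with named genes alone, where fewer units are tested, 12036 with array weights and 764 by the 2-fold rule. Means turned sign for Aurka (-0.046) and Bub1 (-0.20) with receptor centring, for Cdk1 with probe 2 (0.00033) and the running median (0.018), and for Plk1 with the first probe (0.30, as probe 1 or as the gene's value) and the running median (0.023). No paired analysis was possible because each array already sets an adenoma against a late carcinoma and the ratios form 1 group. No intensities were used, so which probes lie near background is unknown here.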
